A study of Homo sapiens with 6 samples.

Results

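The mitochondrial ribosomal protein genes are the nuclear genes named MRPL for the large subunit and MRPS for the small subunit of the ribosome inside mitochondria. They were taken by name, as MRPL or MRPS followed by a number and at most a letter, so that pseudogenes and antisense transcripts were left out. The rule found 78 genes, 49 of the large and 29 of the small subunit, among the 24878 genes of the table. They lie on 21 chromosomes, and 77 of them passed the filter on low counts. The gene not tested was MRPS24, which also had the lowest mean level of the 78.

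Poly-A RNA of MOLM-13, an established human line from a monocytic acute myeloid leukaemia, was sequenced in 3 groups of 2 libraries. The control cells are labelled as carrying a control vector and had no doxycycline. The other groups carried a doxycycline-inducible CaMK2D knockout (KO) vector and had doxycycline for 3 or 5 days. CaMK2D is a calcium/calmodulin-dependent protein kinase. Vector and doxycycline therefore differ from the control together and cannot be told apart, and the labels do not say whether the KO cells are a clone or a pool. Nor do they say whether replicates are separate cultures, so a p-value here covers library-to-library spread alone, and that spread may be technical. The sample titles give the same replicate of each group the same letter, A or B, and what the letter marks is not stated. The main tests treat the libraries as unpaired. A fit with the replicate as a block called more members in each comparison and is given with the other processing choices. In bulk RNA, fewer cells of a kind and less RNA per cell cannot be told apart.

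Total counts ranged from 15456770 to 21081298 per library. The targeted gene, CAMK2D, stood at 3.15 and 1.95 FPKM in control, 1.97 and 2.04 on day 3, and 3.99 and 3.97 on day 5, with adjusted p-values of 0.437 and 0.118 against control. A knockout can leave the mRNA of its gene in place, so this level is no check of the labels, and the groups are called KO-labelled here. Of 10 markers of monocytic acute myeloid leukaemia, 9 were over 1 FPKM in every library. Their summed level was 868 to 1142 FPKM in control, 354 to 445 on day 3 and 388 to 564 on day 5. The markers did not move alike. MPO went from 189 and 342 FPKM in control to 4.62 and 7.55 on day 3 and 1.97 and 4.58 on day 5. CD33 stayed between 7.83 and 9.25 in all libraries, and CEBPA was at 121 and 129 in control and 173 and 185 on day 5. LYZ differed widely within groups, at 18.8 and 97.1 on day 3 and 10.9 and 135 on day 5. Of the other lists, 2 of 5 T and NK cell markers were in the table and summed to 87.4 to 132 FPKM in control, 44.4 to 65.1 on day 3 and 55.0 to 60.7 on day 5. Most of this sum was 1 gene, NKG7, at 120 and 81.6 FPKM in control, where TRAC was at 11.5 and 5.78. CD3D, CD3E and CD3G were not in the table. The B cell markers summed to at most 2.24 FPKM, the erythroid ones to at most 0.121 and the epithelial and stromal ones to at most 9.72. The part of the monocytic and lymphoid marker levels in the results below was not tested.

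Mitochondria keep their own ribosome to translate the few proteins encoded by mitochondrial DNA, all of them parts of the respiratory chain and ATP synthase. Its ribosomal RNAs come from mitochondrial DNA, whereas every ribosomal protein is made from a nuclear gene in the cytosol and imported. Many of the proteins have a counterpart in the bacterial ribosome, and the rest were gained in the mitochondrial lineage. Of the 78 genes, 48 were listed as having a bacterial counterpart and 30 as specific to mitochondria. The promoters of such genes are known for binding sites of NRF1 and of the ETS factor GABP, which give broad activity across tissues.

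The bases just before the transcription start are shown first for members whose transcripts rose on at least 1 day, since an ETS motif near the start was common among them. The 5 shown for this reason are MRPL3, MRPL54, MRPL58, MRPS10 and MRPS31, chosen after their values were seen and because at most 18 of the 100 bases lie in an annotated exon of the gene. MRPL43 also meets these criteria and is not shown because the rest of its window lies in exons of TWNK. MRPS18A, which carries the motif but did not pass the test on either day, is shown beside them. Each sequence is the 100 bases upstream of the RefSeq start (GRCh38.p14), 5′ to 3′ on the strand of the gene. Capitals mark CCGGAAG, a core that ETS factors such as GABP bind, on either strand (CTTCCGG when it lies on the other strand).
MRPL3, large subunit, chr3:131502972-131503071, minus strand: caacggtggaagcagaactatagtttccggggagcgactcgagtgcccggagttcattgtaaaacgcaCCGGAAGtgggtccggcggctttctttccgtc
MRPL54, large subunit, chr19:3762582-3762681, plus strand: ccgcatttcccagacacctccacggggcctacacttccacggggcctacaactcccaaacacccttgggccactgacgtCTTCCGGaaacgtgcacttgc
MRPL58, large subunit, chr17:75012570-75012669, plus strand: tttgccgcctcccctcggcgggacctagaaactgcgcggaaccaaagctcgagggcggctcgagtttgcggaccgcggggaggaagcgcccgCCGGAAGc
MRPS10, small subunit, chr6:42217862-42217961, minus strand: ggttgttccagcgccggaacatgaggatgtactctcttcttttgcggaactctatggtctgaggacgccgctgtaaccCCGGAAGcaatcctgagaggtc
MRPS31, small subunit, chr13:40771191-40771290, minus strand: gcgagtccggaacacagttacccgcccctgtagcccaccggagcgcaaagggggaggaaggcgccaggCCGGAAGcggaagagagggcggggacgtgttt
MRPS18A, chr6:43687792-43687891, minus strand: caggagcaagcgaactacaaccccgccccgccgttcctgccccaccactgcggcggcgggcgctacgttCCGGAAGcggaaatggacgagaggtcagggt

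In these windows the motif began 32 bases before the start in MRPL3 and MRPS31, 31 in MRPS18A, 22 in MRPS10, 21 in MRPL54 and 8 in MRPL58. RefSeq starts were at hand for 69 of the 78 genes, 85 starts in all. Over windows of 300 bases (250 before and 50 after the start), CCGGAAG was present at 38.8% of member starts, against 17.0% of the starts of all genes tested and 10.3% of all starts in the reference table. The YY1 motif AAGATGGCG was at 15.3% of member starts, 3.38% of those of genes tested and 1.75% of all. The NRF1 motif GCGCANGCG was at 17.6%, 12.6% and 7.52% in the same order. The E-box CACGTG, bound by MYC and MAX, was at 10.6%, 9.40% and 7.26%, and the cyclic AMP response element TGACGTCA at 1.18%, 2.70% and 1.85%. Both strands were searched, the last 2 motifs read the same on either strand, and a match to CCGGAAG and one to AAGATGGCG can share bases.

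By subunit, the NRF1 motif was at 12 of 52 large subunit starts (23.1%) and 3 of 33 small subunit starts (9.09%), CCGGAAG at 36.5% and 42.4% and the YY1 motif at 15.4% and 15.2%. A gene with several starts counts at each, and no difference between the subunits was tested. Within the 100 bases before the start, CCGGAAG was at 27.1% of member starts and 9.54% of the starts of genes tested. Among the 16 starts of members that rose on either day it was at 9, or 56.2%, and among the 69 starts of the other members at 14, or 20.3%. These groups were formed from the measured changes, and the comparison is a description with no test. The median GC content of the 300 bases was 60.3% for members and 64.3% for genes tested.

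The 78 genes were expressed at moderate to high levels. FPKM (counts scaled by the library total and by exon length) is per length and is used for every comparison of level between genes. The median over genes of the mean FPKM of the 6 libraries was 23.1 for the large and 13.1 for the small subunit, at the 87.0 and 77.4 percentile of the genes tested. MRPL18, a counterpart of the bacterial protein that holds 5S rRNA, was the highest member at 109 FPKM, followed by MRPS34, a mitochondria-specific small subunit protein, at 83.4. MRPL14, a conserved protein at the subunit interface, was at 76.7 and MRPS12, a conserved protein of the decoding centre, at 65.6. In all, 15 members exceeded 50 FPKM and 6 were under 2 FPKM.

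The lowest members were those whose exons lie inside another annotated gene. MRPS24, MRPL46, MRPL38, MRPS18C, MRPL53 and MRPS28 had mean levels of 0.0934, 0.254, 0.497, 0.589, 1.20 and 1.29 FPKM. In each of them over 40% of the coding bases also belong to an exon of another gene in GENCODE release 29, for example 92.2% of MRPS24 with the readthrough gene URGCP-MRPS24. Over all members, 10 had such a share and a median level of 1.24 FPKM, 18 had a smaller share and 14.7 FPKM, and 50 shared no coding base and stood at 26.5 FPKM. The 50 ranged from 5.38 to 109 FPKM, so none of them was as low as the 6. Protein-coding genes tested over the whole table fell in the same order, with medians of 1.23, 4.47 and 6.31 FPKM. How reads on shared exons were counted is not given in the sources used here, and its part in the levels of the 10 members was not tested. MRPL12, which in bacteria forms the flexible stalk of the large subunit, and MRPS17, a conserved small subunit protein, are among the 10, with 96.0% and 100% of their coding bases shared.

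**Figure D1:**
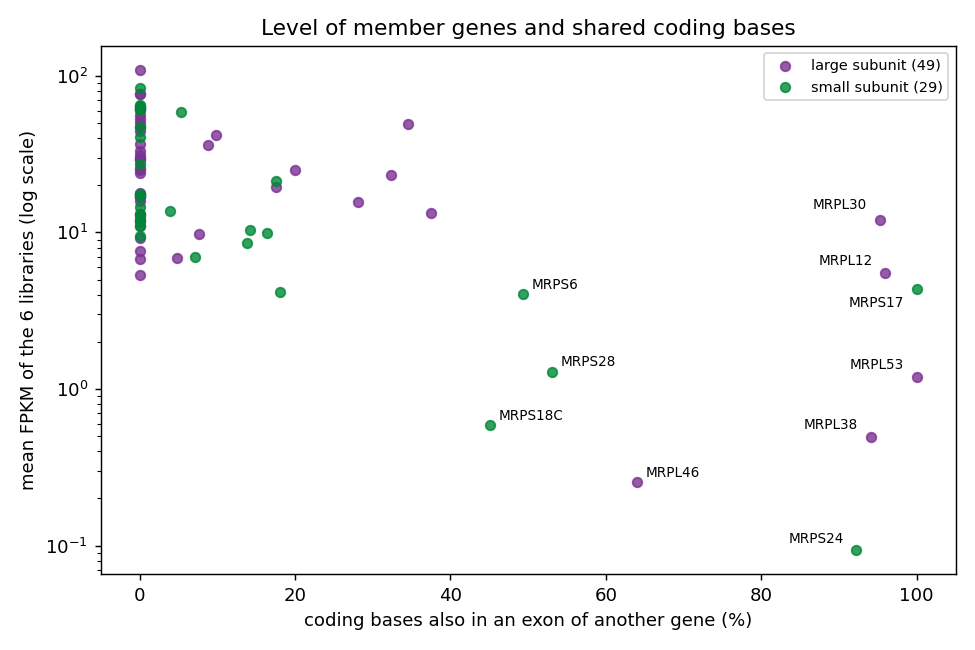
Mean FPKM of the 6 libraries (log scale) against the percent of a gene's coding bases that also lie in an exon of another gene, 1 point per member (49 large, 29 small subunit). The 10 named members to the right of 40% lie between 0.0934 and 12.01 FPKM, whereas members with no shared coding base lie between 5.38 and 109 FPKM.

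Summed over members, the mitochondrial ribosomal protein genes made up a larger part of all FPKM in the KO-labelled libraries. The share was 0.612% and 0.715% in control, 0.829% and 0.862% on day 3, and 0.795% and 0.806% on day 5. All 4 KO-labelled libraries lay above both controls, and control replicate 1 was the lowest of the 6. Group means were 0.663% ± 0.0725 in control, 0.845% ± 0.0233 on day 3 and 0.800% ± 0.00770 on day 5 (SD, n = 2). With 2 libraries a group an exact permutation test of such a share cannot pass 0.05, and none is given.

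The summed levels of the large and the small subunit rose in nearly the same proportion. The ratio of summed large to summed small subunit FPKM was 1.94 and 2.06 in control, 1.99 and 1.94 on day 3, and 2.05 and 2.003 on day 5. The control pair spans this whole range, and both day 5 libraries lie above both day 3 libraries. The group means of 1.997 ± 0.0844, 1.96 ± 0.0316 and 2.03 ± 0.0333 (SD, n = 2) differ by less than the range of the controls. The median member of the large subunit was at 17.8 and 20.5 FPKM in control, 23.3 and 23.4 on day 3, and 22.7 and 22.6 on day 5. For the small subunit these values were 9.92 and 12.2, 14.1 and 13.8, and 13.0 and 13.2 FPKM. The difference of the medians of log2 FPKM, large minus small, was 0.716 and 0.697 in control, 0.718 and 0.652 on day 3, and 0.771 and 0.764 on day 5. On this measure both day 5 libraries lay above the other 4, with means of 0.707 ± 0.0135, 0.685 ± 0.0471 and 0.767 ± 0.00455 (SD, n = 2) in the 3 groups. Some MRPS names do not give the place of the protein in the ribosome: MRPS18A and MRPS30 are known from the structure to sit in the large subunit, and MRPS36 is now known as part of a metabolic enzyme complex. With these assigned by structure (51 large, 26 small) the ratios were 2.23, 2.16 and 2.24 in control, day 3 and day 5. The difference of the medians of log2 FPKM was then higher in control than on day 5, the reverse of the order by name.

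**Figure D2:**
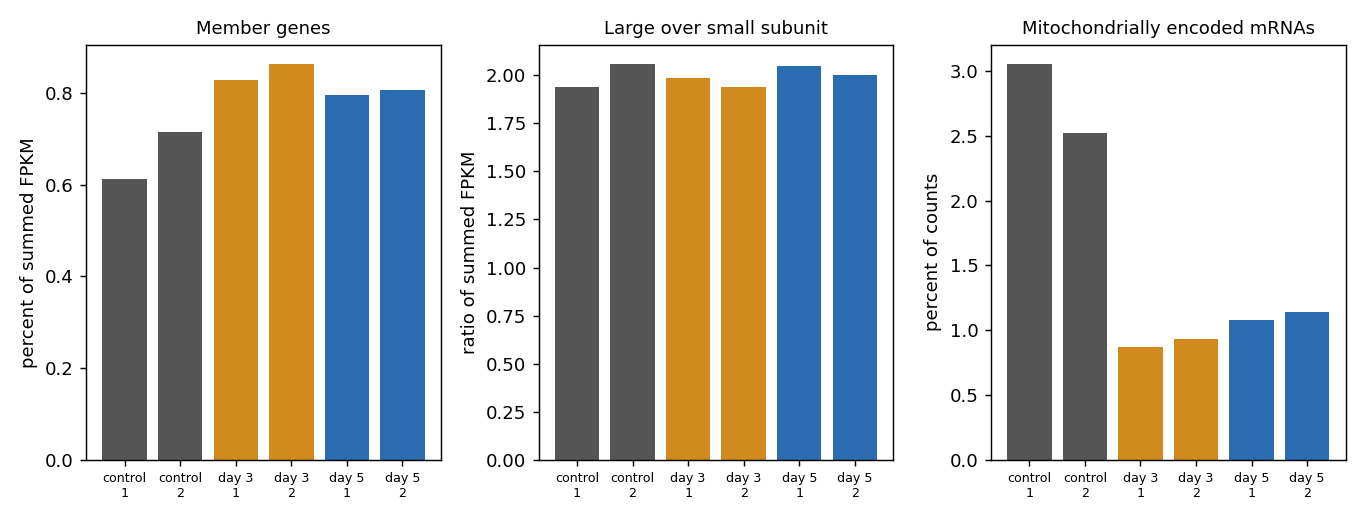
Per library (bars, colours by group), the percent of summed FPKM held by the 78 member genes, the ratio of summed large to small subunit FPKM, and the percent of counts on mitochondrially encoded mRNAs. Members hold 0.612% and 0.715% in the controls and 0.795% to 0.862% in the KO-labelled libraries, the ratio stays between 1.94 and 2.06, and mitochondrial mRNAs fall from 3.05% and 2.52% to between 0.868% and 1.14%.

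Replicate 1 was the lower library in most members in control and on day 3. Of the 77 tested members 57 (74.0%) were lower in it than in control replicate 2 on the TMM-scaled level (a library-size scaling that sets most genes equal), with a median log2 difference of -0.23, against -0.00 and 49.9% of all genes tested. On day 3 replicate 1 was the lower in 62 members (80.5%), by a smaller median of -0.10, and on day 5 in 41, with a median of -0.02. The control difference was -0.26 for large and -0.22 for small subunit members and -0.30 for 85 cytosolic ribosomal protein genes. Over all genes it followed exon length, with medians of -0.23 for exon lengths up to 1500 bases, -0.17 from 1500 to 2500, -0.07 from 2500 to 4000 and 0.06 above 4000. Members over 4000 bases long were also lower in it, at a median of -0.21. The part of each library in each result was measured by leaving it out, and those values stand beside the results.

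At day 3, mitochondrial ribosomal protein transcripts were more often higher than lower. The edgeR quasi-likelihood test, with p-values adjusted over all 14601 genes tested, called 12 of 77 members higher (15.6%) and 1 lower (1.30%), where 5.72% of all genes were called higher, 5.99% lower and 11.7% in all. Both day 3 libraries lay above both controls in 56 members (72.7%) and below both in 6 (7.79%), against 30.3% and 30.1% of all genes (60.4% in either direction). The log2 change was above 0 in 65 of the 77 members, against 49.98% of all genes, and its median was 0.36, against -0.00. It ranged from -1.14 in MRPS6 to 1.57 in MRPS28.

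Both subunits took part in the day 3 change. Of 49 large subunit members 8 passed the test as higher (16.3%) and 0 as lower, beside 5.72% and 5.99% of all genes. Their median log2 change was 0.33. Of 28 small subunit members 4 passed as higher (14.3%) and 1 as lower (3.57%), with a median of 0.42. At an unadjusted p under 0.05, 19 large subunit members were higher and 1 lower, and 11 small subunit members were higher and 1 lower. Of the 14601 genes tested, 2103 were higher and 2120 lower at that threshold. The median of the large minus that of the small subunit was -0.08, and it turned to 0.01 over the 37 members that share no exon base with another gene. Without control replicate 1 the medians were 0.24 and 0.31, and the calls of MRPL21, MRPL40, MRPL41, MRPL54, MRPS16 and MRPS22 were among those lost. Without control replicate 2 the medians were 0.46 and 0.49. Without KO day 3 replicate 1 or without KO day 3 replicate 2 no member was called, where 1.79% and 2.11% of all genes were. The medians then were 0.39 and 0.27 for the large and 0.47 and 0.36 for the small subunit.

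**Figure D3:**
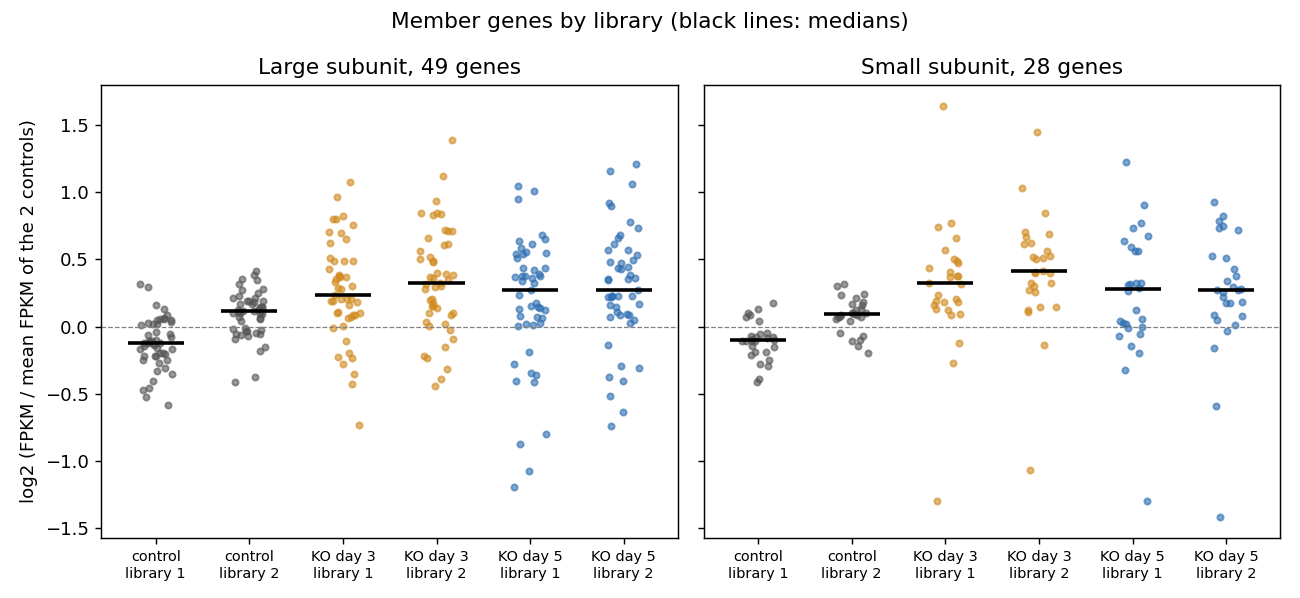
Each tested member (49 large, 28 small) in each library, as the log2 ratio of its FPKM to the mean FPKM of the 2 controls, with the median as a black line. Medians are -0.12 and 0.11 in the controls and between 0.23 and 0.33 in the KO-labelled libraries for the large subunit, and -0.10 and 0.09 against 0.27 to 0.41 for the small subunit.

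On day 5 the median shift was smaller than on day 3, and most members were still above control. The test called 8 of 77 members higher (10.4%) and 4 lower (5.19%), where 7.44% of all genes were called higher, 7.05% lower and 14.5% in all. These shares are near the background. Both day 5 libraries lay above both controls in 35 members (45.5%) and below in 9 (11.7%), against 29.6% and 28.4% of all genes (58.1% in either direction), and the log2 change was above 0 in 61 members, against 51.0%. The median log2 change was 0.21, against 0.01 over all genes.

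The subunits also had similar medians on day 5. Of 49 large subunit members 4 were called higher (8.16%) and 2 lower (4.08%), beside 7.44% and 7.05% of all genes, with a median of 0.22. Of 28 small subunit members 4 were higher (14.3%) and 2 lower (7.14%), with a median of 0.20. The difference of the medians was 0.01, and it was 0.11 over members sharing no exon base and -0.05 without control replicate 2. Without control replicate 1 the medians were 0.12 and 0.09. The number of calls also moved with the control library left out, and it was not set against all genes here. Without KO day 5 replicate 1 the calls were MRPL39 and MRPL58 higher and MRPS6 lower, and without KO day 5 replicate 2 they were MRPL58 higher and MRPS6 lower. Leaving out KO day 3 replicate 1 or 2 gave 3 or 4 higher and 3 lower.

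Between the days the members moved down by a small step. Against day 3, the day 5 level was lower in 59 of 77 members, with a median log2 change of -0.15, where the median over all genes was 0.02 and 52.1% of all genes were above 0. Both day 5 libraries lay below both day 3 libraries in 40 members (51.9%) and above in 4 (5.19%), against 23.8% and 25.5% of all genes (49.2% in either direction). The medians were -0.15 for the large and -0.15 for the small subunit. No member passed the edgeR test, in which 0.0274% of all genes did, and none passed with DESeq2. Without the filter on low counts 3 members were called lower, where 2.41% of all genes were called. With the replicate as a block 3 members were also called lower, and the share of all genes called is not given here. That no member passed therefore holds for the unpaired fit. At an unadjusted p under 0.05 there were 9, all lower: MRPL24, MRPL11, MRPS25, MRPS12, MRPL40, MRPS27, MRPL17, MRPL23 and MRPL15, at log2 changes of -0.60 to -0.33. Of the 14601 genes tested, 957 were lower and 1249 higher at that threshold. The comparisons of day 3 and day 5 with control share the control libraries.

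**Figure D4:**
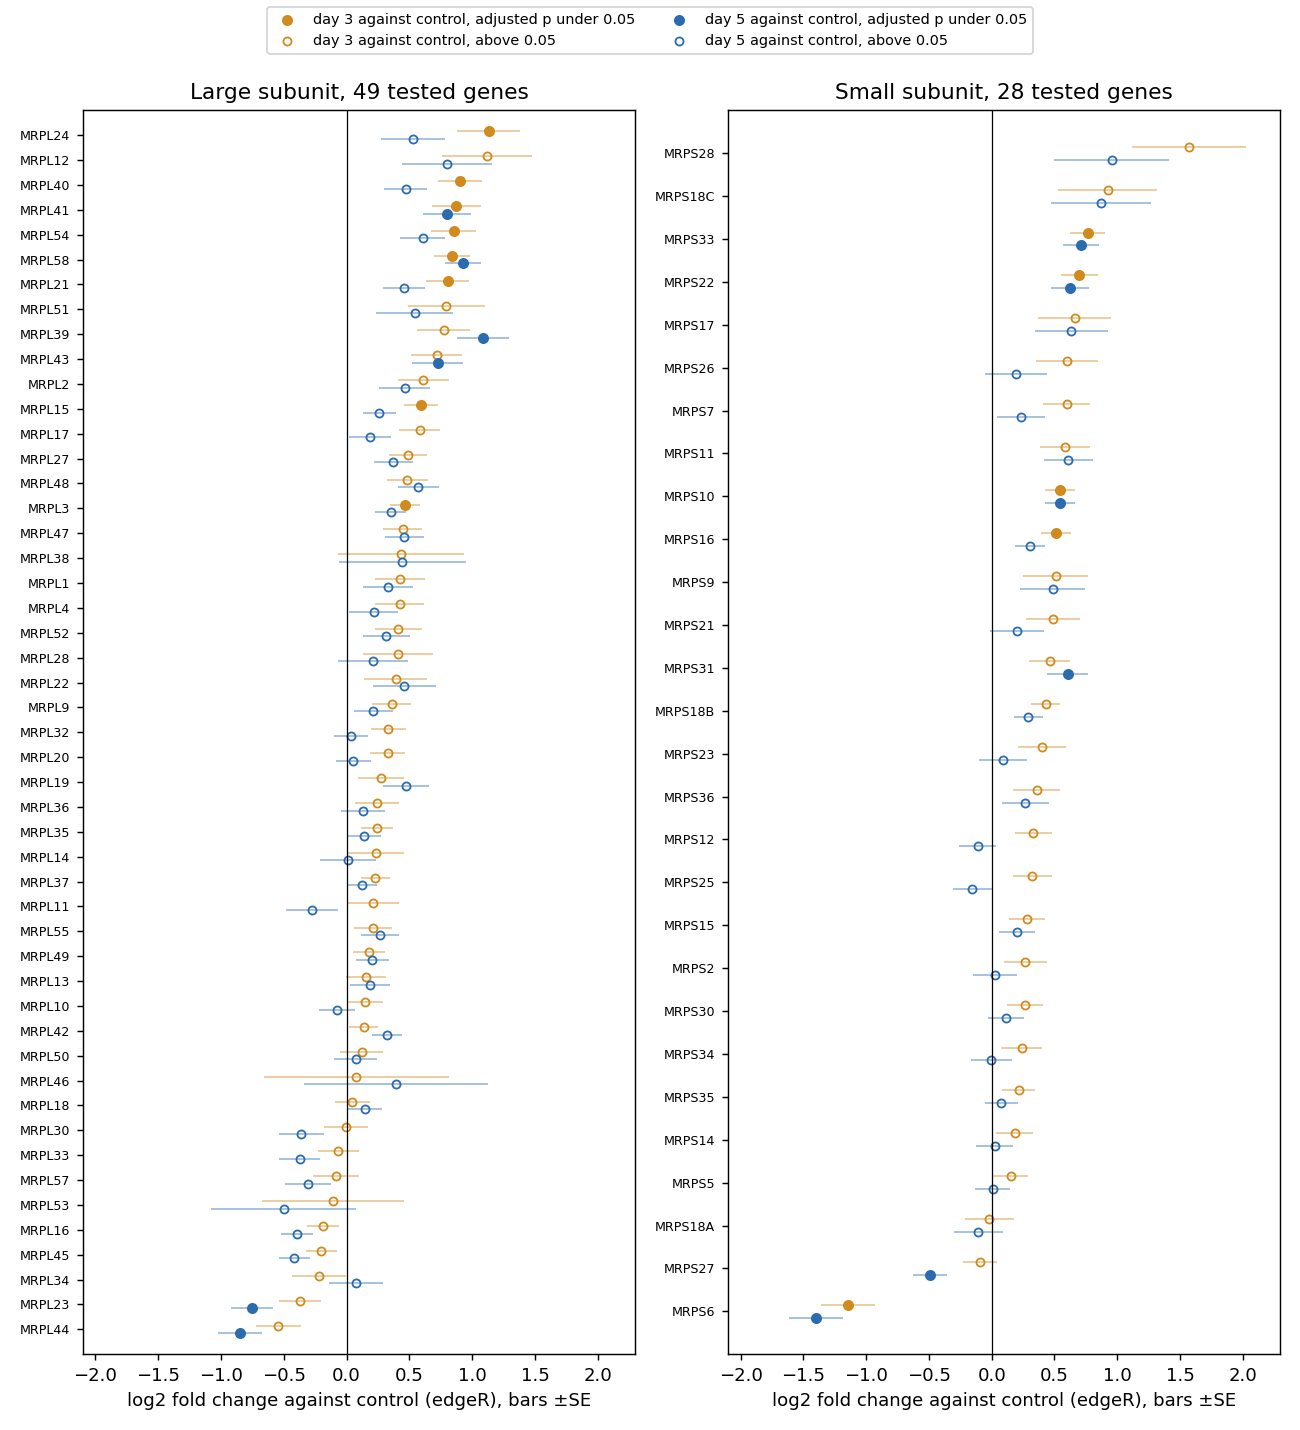
Log2 fold change of each tested member against control on day 3 (orange) and day 5 (blue), with bars of ±SE and filled points for an adjusted p under 0.05, ordered by the day 3 value within each subunit. Most points lie to the right of 0 (65 of 77 on day 3 and 61 on day 5), and MRPS6 is the only filled point to the left on both days.

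Of the members called higher, 5 passed on both days: MRPL41 and MRPL58 of the large and MRPS10, MRPS22 and MRPS33 of the small subunit. MRPL58 (ENSG00000167862, chr17:75012670-75021261, plus strand, GRCh38) is a large subunit protein that kept the peptidyl-tRNA hydrolase fold of a release factor and can free stalled peptides. It stood at 24.4 and 22.6 FPKM in control, 39.8 and 42.2 on day 3, and 47.3 and 44.6 on day 5. The groups do not overlap between control and KO-labelled libraries, and the log2 changes were 0.84 (± 0.14 SE, adjusted p = 0.0118) and 0.93 (± 0.14 SE, adjusted p = 0.00690). At day 5 MRPL58 passed under all 16 refits and leave-outs that were run, and on day 3 under all but those leaving out a day 3 library.

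MRPL41 (ENSG00000182154, chr9:137551199-137552555, plus strand), a mitochondria-specific large subunit protein, stood at 25.99 and 35.8 FPKM in control, 60.4 and 50.5 on day 3, and 59.8 and 51.3 on day 5. Every KO-labelled library was above both controls, with log2 changes of 0.88 (± 0.19 SE, adjusted p = 0.0265) and 0.80 (± 0.19 SE, adjusted p = 0.0302). The controls differ by a wider step in MRPL41 than in MRPL58, and without control replicate 1 it passed on neither day, at 0.66 and 0.57. Its day 5 call also ended without KO day 3 replicate 1.

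The 3 small subunit members on this list had steadier controls. MRPS33 (chr7:141002610-141015228, minus strand), a mitochondria-specific protein, stood at 6.14 and 6.90 FPKM in control, 11.1 and 10.51 on day 3, and 10.4 and 11.6 on day 5, with log2 changes of 0.77 and 0.71 (SE 0.14 each, adjusted p = 0.0145 and 0.0159). MRPS22, also mitochondria-specific and known from inherited disorders of mitochondrial translation, stood at 4.71 and 5.32, then 7.91 and 7.98, then 7.57 and 8.34 FPKM, with log2 changes of 0.70 and 0.62 (SE 0.15 each, adjusted p = 0.0248 and 0.0306). In both genes the KO-labelled libraries of the 2 days overlapped each other and lay clear of the controls. MRPS10, a conserved protein of the head of the small subunit, was more abundant, at 50.04 and 46.99 FPKM in control, 68.1 and 69.7 on day 3, and 75.6 and 69.7 on day 5. Its log2 change was 0.54 on each day (SE 0.12, adjusted p = 0.0256 and 0.0221). Each of the 3 lost its day 5 call without either day 5 library, and MRPS10 and MRPS22 also without either day 3 library. MRPS22 lost both calls without control replicate 1, and MRPS10 its day 5 call without control replicate 2.

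**Figure D5:**
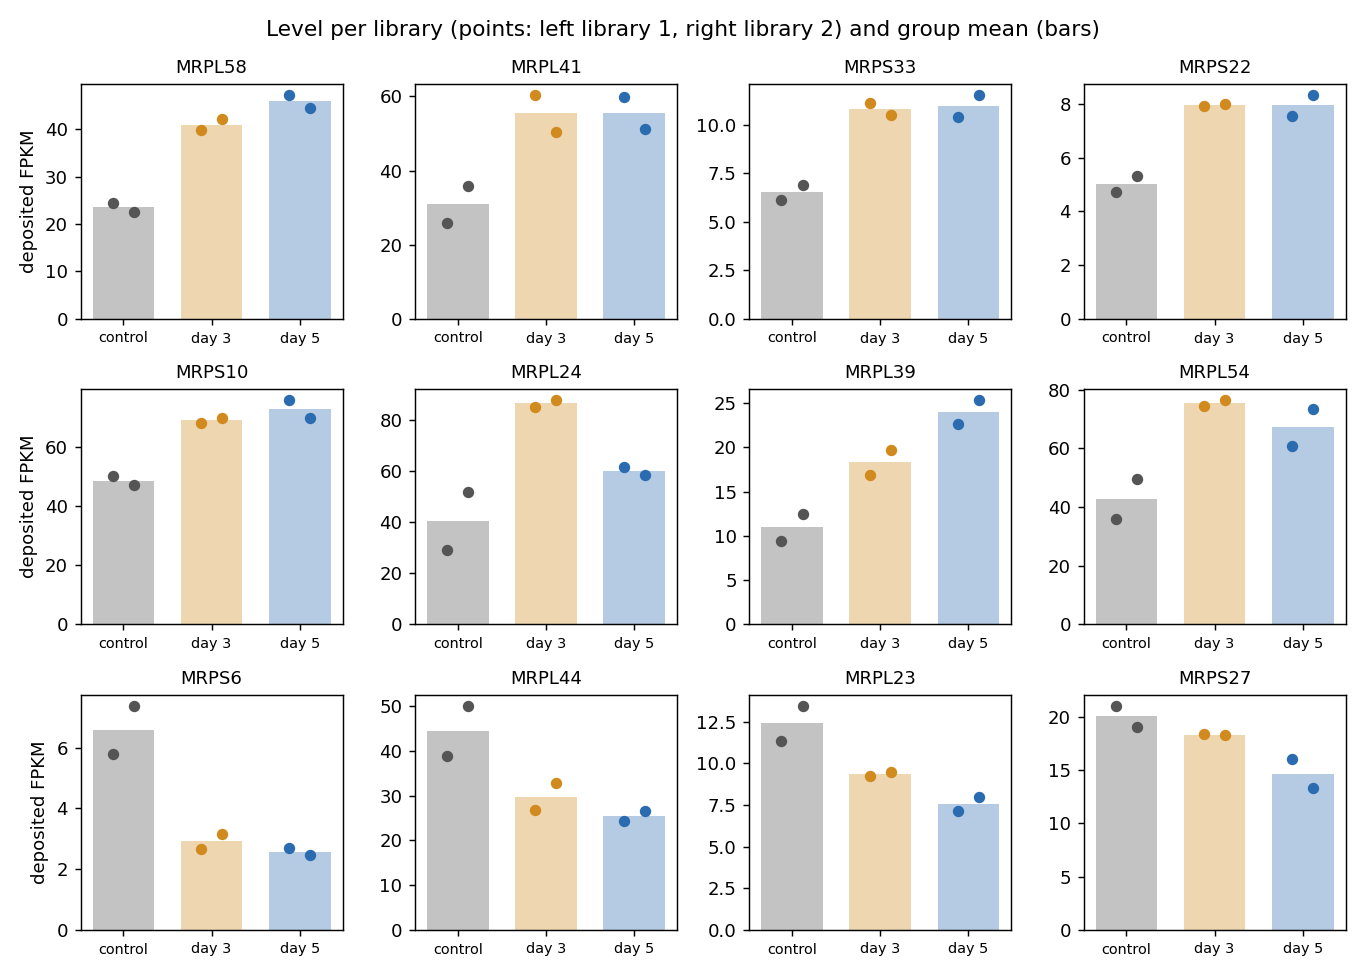
Deposited FPKM of 12 members by group, with 1 point per library (left replicate 1, right replicate 2) and bars for the mean of 2. In the upper rows the KO-labelled points lie above the controls, as for MRPL58 at 24.4 and 22.6 against 39.8 to 47.3, and in the bottom row they lie below, as for MRPS6 at 5.79 and 7.38 against 2.47 to 3.15.

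A further 7 members passed as higher on day 3 and not on day 5: MRPL3, MRPL15, MRPL21, MRPL24, MRPL40, MRPL54 and MRPS16. That they differ between the days is not shown, since none of the 7 passed the test of day 5 against day 3. MRPL24, a conserved protein beside the exit of the peptide tunnel, had the largest rise of them, from 29.05 and 51.6 FPKM in the controls to 85.2 and 87.7 on day 3, and stood at 61.7 and 58.4 on day 5. Its controls are wide apart. The log2 change was 1.13 on day 3 (± 0.25 SE, adjusted p = 0.0340), 0.53 on day 5 (± 0.25 SE, adjusted p = 0.206) and -0.60 between the days (± 0.25 SE, adjusted p = 0.325). Leaving out either day 3 or either day 5 library ended its day 3 call, with values of 0.77 to 1.63 over the 6 leave-outs.

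MRPL40 and MRPL54 are specific to mitochondria. MRPL40 went from 7.90 and 9.05 FPKM to 14.7 and 16.2 on day 3, a log2 change of 0.90 (± 0.17 SE, adjusted p = 0.0171), and was at 12.3 and 11.9 on day 5 (0.47, adjusted p = 0.109). MRPL54 went from 36.0 and 49.6 to 74.6 and 76.4 FPKM, a log2 change of 0.85 (± 0.18 SE, adjusted p = 0.0243), and was at 60.9 and 73.4 on day 5 (0.61, adjusted p = 0.0611). In both, the day 5 libraries stayed above both controls. The other 4 have bacterial counterparts. MRPL21 rose by a log2 change of 0.80, MRPL15, a scaffold protein of the large subunit core, by 0.59, MRPS16 by 0.52 and MRPL3, next to the peptidyl transferase centre, by 0.47, with adjusted p-values of 0.0232, 0.0295, 0.0318 and 0.0466. Of these 4, MRPL15 was the most abundant, at 65.7 and 57.8 FPKM in the controls and 86.8 and 94.4 on day 3, and its call also ended without control replicate 2.

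The 3 members called higher on day 5 alone, MRPL39, MRPL43 and MRPS31, are mitochondria-specific. MRPL39 (ENSG00000154719, chr21:25585656-25607517, minus strand), whose fold resembles part of a threonyl-tRNA synthetase, went from 9.39 and 12.5 FPKM in the controls to 16.9 and 19.7 on day 3 and 22.7 and 25.3 on day 5. It was the member with the largest day 5 rise and 1 of 4 whose day 5 libraries lay above both day 3 libraries, with MRPL18, MRPL34 and MRPL42. Its log2 change was 0.77 on day 3 (± 0.21 SE, adjusted p = 0.0501) and 1.09 on day 5 (± 0.21 SE, adjusted p = 0.0150). The step between the days, 0.31, did not pass (adjusted p = 0.514). MRPS31 had log2 changes of 0.46 and 0.61 (SE 0.16 each, adjusted p = 0.105 and 0.0434). MRPL43 had 0.72 on each day (SE 0.20, adjusted p = 0.0573 and 0.0491), and 37.5% of its coding bases also lie in exons of SEMA4G or TWNK. Leaving out KO day 5 replicate 2 ended the calls of all 3, the call of MRPS31 was lost in each of the 6 leave-outs, and that of MRPL43 in all but the one without control replicate 2.

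MRPS6 (ENSG00000243927, chr21:34073224-34143034, plus strand) was the member that fell on both days. It is the counterpart of a bacterial small subunit protein at the platform, and it went from 5.79 and 7.38 FPKM in the controls to 2.68 and 3.15 on day 3 and 2.69 and 2.47 on day 5. The groups do not overlap, and the log2 changes were -1.14 (± 0.21 SE, adjusted p = 0.0160) and -1.40 (± 0.22 SE, adjusted p = 0.00691). The day 5 call held under all 16 refits and leave-outs, at -1.58 to -1.08. Of its coding bases, 49.3% also lie in exons of other genes, among them SLC5A3, an inositol transporter gene whose exons overlap those of MRPS6. SLC5A3 also fell, by log2 changes of -1.07 and -1.11 (adjusted p = 0.0256 and 0.0195), and the part of its reads in the level of MRPS6 was not tested.

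The other 3 falls were called on day 5 alone. MRPL44 (ENSG00000135900, chr2:223957404-223967714, plus strand), a large subunit protein with an RNase III-like fold, stood at 38.9 and 50.04 FPKM in control, 26.8 and 32.8 on day 3, and 24.3 and 26.6 on day 5, and its KO-labelled libraries lay below both controls on each day. Its log2 change was -0.54 on day 3 (± 0.18 SE, adjusted p = 0.0872) and -0.85 on day 5 (± 0.18 SE, adjusted p = 0.0197). MRPL23, a conserved protein at the exit of the peptide tunnel, stood at 11.4 and 13.4, then 9.22 and 9.49, then 7.14 and 7.99 FPKM, with a log2 change of -0.76 on day 5 (± 0.17 SE, adjusted p = 0.0236). MRPS27, a pentatricopeptide-repeat RNA-binding protein of the small subunit, stood at 21.05 and 19.1, then 18.4 and 18.3, then 16.0 and 13.3 FPKM, with -0.49 on day 5 (± 0.14 SE, adjusted p = 0.0483). Without either day 5 library none of the 3 passed. MRPL23 also lost its call without control replicate 2, and MRPS27 without either day 3 library or control replicate 1. All 4 members that fell share some exon bases with another gene, MRPL23 only 2.86% of its own. Over the 37 members that share none, the count of falls was therefore 0 on both days, beside 5.99% and 7.05% of all genes. In those 37, 10 and 6 members were higher, beside 5.72% and 7.44%. MRPL23-AS1, which overlaps MRPL23, had at most 4 counts in a library, and AC073641.1, which overlaps MRPL44, at most 8. PTCD2, which overlaps MRPS27, rose, by log2 changes of 1.30 and 0.96. The part of shared bases in the falls was not tested.

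Conserved and mitochondria-specific members had similar medians with the subunits pooled. The 47 tested members with a bacterial counterpart had median log2 changes of 0.36 on day 3 and 0.21 on day 5, and the 30 specific to mitochondria 0.38 and 0.29. Within the large subunit the conserved members had 0.33 and 0.20 and the specific ones 0.41 and 0.39. Within the small subunit the order was the other way, with 0.49 and 0.23 for the conserved and 0.36 and 0.11 for the specific ones. Over all genes 5.72% were called higher and 5.99% lower on day 3. Calls on day 3 were 6 higher (12.8%) and 1 lower (2.13%) among the conserved and 6 (20%) and 0 among the specific members. At day 5 they were 1 higher (MRPS10, 2.13%) and 2 lower (4.26%) against 7 higher (23.3%) and 2 lower (6.67%), beside 7.44% and 7.05% of all genes. No test of this difference was made.

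The 3 MRPS18 paralogues, which descend from the same bacterial protein, differed in level and change. MRPS18B stood at 48.8 and 52.6 FPKM in control, 66.0 and 67.2 on day 3, and 63.5 and 64.2 on day 5, with log2 changes of 0.43 and 0.29 (adjusted p = 0.0506 and 0.133). MRPS18A was at 20.2 and 23.3, then 18.1 and 23.8, then 19.7 and 21.9 FPKM, all 3 groups overlapping, with -0.02 and -0.11. MRPS18C was listed at 0.346 to 0.760 FPKM, with 45.1% of its coding bases shared. Among the other members with names at odds with the structure, MRPS30 had log2 changes of 0.27 and 0.11 and MRPS36 of 0.36 and 0.27, and neither passed. MRPL12, with nearly all of its coding bases shared, was at 3.21 and 3.55, then 5.49 and 8.84, then 5.08 and 7.06 FPKM, with 1.12 and 0.80 (SE 0.36 each, adjusted p = 0.0828 and 0.174).

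The 2 most abundant members, MRPL18 and MRPS34, did not pass the test on either day, whereas MRPL15, MRPS10, MRPL24, MRPL54, MRPL3 and MRPS16, each over 50 FPKM, were called higher on day 3. MRPL18 stood at 92.6 and 115 FPKM in control, 103 and 106 on day 3, and 115 and 122 on day 5, with log2 changes of 0.04 and 0.15 (SE 0.14 each, adjusted p = 0.872 and 0.525). MRPS34 stood at 68.0 and 89.4, then 84.1 and 97.2, then 78.7 and 83.1 FPKM, with 0.24 and -0.00 (SE 0.16 each). In both genes the groups overlapped.

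A gene start close to that of an oppositely oriented gene was common among members. A protein-coding gene started head to head within 1000 bases in 28 of 78 members (35.9%), against 17.5% of protein-coding genes tested. The share was 42.9% for the large and 24.1% for the small subunit. The pair MRPL46 and MRPS11 lie head to head with each other, 34 bases apart. MRPL36 and MRPL47 share such a start with NDUFS6 and NDUFB5, both for subunits of respiratory complex I, at 34 and 36 bases. NDUFB5 rose with log2 changes of 0.51 and 0.63 (adjusted p = 0.0370 and 0.0170), while MRPL47 had 0.45 and 0.46 (adjusted p = 0.0976 and 0.0810). SLC7A7, an amino acid transporter gene 59 bases from MRPL52, went the other way, at -1.38 and -1.65 (adjusted p = 0.0125 and 0.00576), where MRPL52 had 0.41 and 0.32 and did not pass. These partners were named after their values were seen. Members with a head-to-head gene had median log2 changes of 0.33 and 0.21 and those without 0.40 and 0.22.

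The other parts of the mitochondrial ribosome and its upkeep were read from lists. The 5 mitoribosome proteins under other names, DAP3, PTCD3, CHCHD1, AURKAIP1 and GADD45GIP1, had medians of 0.38 on day 3 and 0.26 on day 5, with none called. Of 25 genes for assembly and rRNA modification 5 rose and 1 fell on day 3, and 3 rose and 4 fell on day 5, with medians of 0.32 and 0.13. These counts stand beside 5.72% risen and 5.99% fallen over all genes on day 3 and 7.44% and 7.05% on day 5. GTPBP10, a GTPase of large subunit assembly, rose from 2.22 ± 0.0573 to 4.09 ± 0.189 and 4.70 ± 0.108 FPKM (SD, n = 2), log2 changes of 0.92 and 1.04 (adjusted p = 0.00848 and 0.00469). NOA1, a GTPase for the small subunit, fell by 0.66 and 0.82 on the log2 scale (adjusted p = 0.0200 and 0.00814). MRM1, an rRNA methyltransferase, rose by 1.16 on day 3 (adjusted p = 0.0130) and was at 0.45 on day 5 (adjusted p = 0.176).

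Of 16 translation factors 4 rose on day 3, against 5.72% of all genes, and 4 rose and 1 fell on day 5, against 7.44% and 7.05%. MTIF2, the initiation factor, rose from 10.4 ± 0.233 to 17.9 ± 0.0594 and 22.5 ± 0.218 FPKM (SD, n = 2), log2 changes of 0.82 and 1.08 (adjusted p = 0.00808 and 0.00273). GUF1, a translation GTPase, rose by 0.68 and 0.94 (adjusted p = 0.0445 and 0.0136). OXA1L, which inserts new proteins into the inner membrane, had -0.35 on day 3 (adjusted p = 0.0924) and fell by 0.68 on the log2 scale on day 5 (adjusted p = 0.00986).

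Most of the mRNAs that this ribosome translates went the other way. Mitochondrially encoded mRNAs held 3.05% and 2.52% of counts in control, 0.868% and 0.929% on day 3, and 1.08% and 1.14% on day 5. Of 13 genes 10 were called lower on each day, against 5.99% and 7.05% of all genes, with medians of -1.36 and -1.12. On each day 3 had a log2 change above 0, at most 0.42 on day 3 and 0.46 on day 5, and 0 were called higher. MT-CO2, a core subunit of cytochrome oxidase, fell by 2.58 and 2.59 on the log2 scale. The 2 mitochondrial rRNA genes, MT-RNR1 and MT-RNR2, were not found by name among the genes of the table, so they were not analysed.

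Cytosolic ribosomal protein genes were also more often higher. Of 85 tested 12 rose (14.1%) and 0 fell on day 3, against 5.72% and 5.99% of all genes. On day 5, 7 rose (8.24%, against 7.44% of all genes) and 1 fell (1.18%, against 7.05%). The medians were 0.42 and 0.17, and the median between the days was -0.25. They held 15.7% and 18.8% of FPKM in control, 23.4% and 23.1% on day 3, and 21.2% and 21.04% on day 5. RPS12 rose by log2 changes of 0.70 and 0.64 (adjusted p = 0.0137 and 0.0157). Of 13 regulators of mitochondrial genes 1 rose and 1 fell on day 3, and 2 rose and 1 fell on day 5. With 1 gene being 7.69% of the list, these counts are near the shares over all genes, 5.72% and 5.99% on day 3 and 7.44% and 7.05% on day 5. MYC, a growth transcription factor, rose from 202 ± 5.03 to 324 ± 44.9 FPKM on day 3 (0.72, adjusted p = 0.0169) and was at 180 ± 11.3 on day 5 (-0.21, adjusted p = 0.345). GABPB2, a partner of the ETS factor GABPA, rose by 0.58 on day 5 (adjusted p = 0.0292). The other regulator called higher on day 5 is not named here. YY1, named after its value was seen, fell by 0.46 on the log2 scale on day 3 (adjusted p = 0.0449). ESRRA, a nuclear receptor for mitochondrial genes, fell by 0.60 on the log2 scale on day 5 (adjusted p = 0.0389).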

How the data were processed

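Poly-A RNA of 6 MOLM-13 libraries was compared as 3 groups of 2, taken from the labels. Per the submitters' processing notes the tools were HISAT2, HTSeq 0.11.2 and DESeq2 1.26.0 with GRCh38. The table deposited by the authors gives a read count per gene, not normalized, and an FPKM. The deposited FPKM equal the count over the library total and the GENCODE 29 exon length, within 0.5 bases for 99.7% of genes and for all 78 members.

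Counts were tested with edgeR 4.0.16 (R 4.3.3), by the robust quasi-likelihood test with TMM factors, filterByExpr (minimum count 10) and 1 fit over the 3 groups with 3 residual degrees of freedom. Every adjusted p is Benjamini-Hochberg over the 14601 genes tested, with a threshold of 0.05, and log2 changes use a prior count of 0.125. An error written as SE is the size of the log2 change over the square root of its F statistic. Groups that do not overlap were judged on TMM-scaled counts. The alternatives used DESeq2 1.42.0, limma 3.58.1 on log2(FPKM + 1 or 0.1), other factors and filters, a replicate block, each library left out, and other sets of members. On simulated counts with day 3 against control, the test recovered 43.4% of genes changed 2-fold and 67.3% of those changed 4-fold. With day 5 against control these values were 45.45% and 67.78%, and with day 5 against day 3 they were 36.73% and 77.45%.

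In the shallowest library 3 counts, the limit that a count of 0 allows, are 0.194 CPM, for counting error alone. Members and lists were chosen with earlier results of these data known. Members named in full are those with the smallest adjusted p or the most extreme change of each subunit, the highest and lowest levels, the MRPS18 paralogues, MRPS30, MRPS36 and MRPL12. From the other lists up to 3 genes with the smallest adjusted p are named. Other named genes, among them MRPL47, MRPL52, YY1 and the genes that share exons or starts with members, were chosen after their values were seen. Exon overlap and gene starts are from GENCODE 29 and promoter sequences from RefSeq (GRCh38.p14), where 9 members had no entry.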

Additional observations from a re-analysis of the deposited data

Results flagged for a closer look

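MRPS30-DT, a divergent transcript beside MRPS30 that the naming rule leaves out of the members, was higher in all 4 KO-labelled libraries than in both controls. It had 8 and 19 counts in control, 54 and 55 on day 3, and 57 and 68 on day 5. The log2 changes were 2.007 on day 3 and 2.256 on day 5 (SE 0.48 each, edgeR adjusted p = 0.0353 and 0.0214). MRPS30 itself had 0.27 and 0.11 and did not pass. The transcript is annotated as antisense, and whether the counting used strand is not given in the sources used here.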

How the results depend on the processing

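Both subunits kept a median log2 change above 0 on day 3 and day 5 and below 0 between the days in each alternative run, and no call of a named member changed sign, whereas the counts of calls moved widely. The shares of all genes called under these settings are not given beside the counts below. The counts are therefore no measure of the members against all genes. On day 3 (12 higher, 1 lower) DESeq2 gave 22 and 2, no filter on low counts 23 and 2, limma without a filter 2 and 0, and leaving out a library 0 to 25 and 0 to 2. On day 5 (8 and 4) limma without a filter gave 4 and 1, a fit of only the groups compared 3 higher, and leaving out a library 1 to 15 and 1 to 4. Without members that share exon bases the falls were 0 on both days, and between the days no filter gave 3 lower. With the replicate block the counts were 31 and 2 on day 3, 19 and 7 on day 5 and 3 lower between the days. The sample titles carry the letter A for replicate 1 and B for replicate 2 in all 3 groups. The labels do not say whether a letter marks shared material, and for that reason the block is not the main fit. Deviations of replicate 1 correlated between groups at 0.51, 0.44 and 0.63 over the 10190 genes above 5 CPM. Over the 72 members above 5 CPM the values were -0.08, 0.18 and 0.25. What the letters mark was not tested.

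The large minus small median on day 3 (-0.08) was -0.033 with a 5 CPM filter, -0.0461 with limma at a pseudocount of 1, -0.020 with limma without a filter, -0.13 with subunits by structure, 0.0093 without shared exons, and -0.091 to -0.029 leaving out a library. On day 5 (0.01) it was -0.023 with limma at 0.1, -0.0257 at 1, -0.0253 without a filter, 0.11 without shared exons, and -0.054 to 0.031 leaving out a library. Between the days (0.00) it was 0.024 without shared exons and -0.000393 to 0.058 leaving out a library. The small subunit median ran from 0.087 to 0.37 on day 5 and from -0.30 to -0.16 between the days when a library was left out. By structure the large to small ratio was 2.23, 2.16 and 2.24 in control, day 3 and day 5, and without the highest member of each subunit 2.10, 2.07 and 2.10. The difference of median log2 FPKM was 0.79 in control and 0.72 on day 5 by structure, and 0.63 on day 3 and 0.75 on day 5 without the highest members, where the share of FPKM was 0.774% and 0.726%. The cause of these moves was not tested, beyond the smaller sets and samples. Over the named genes, 1243 refits kept direction and side of the threshold, 103 lost the call, 45 gained it and 69 changed sign. Each of the 69 is of a value that did not pass in the first place (smallest adjusted p 0.525), and none passed after the change.

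On day 3, leaving out a library gave -0.0858 to 0.67 for MRPL14, -0.11 to 0.24 for MRPL18, -0.23 to 0.47 for MRPL46 and -0.23 to 0.19 for MRPS18A. On day 5, leaving out a library gave -0.32 to 0.41 for MRPL14, -0.0214 to 0.30 for MRPL18, -1.08 to 1.09 for MRPL46, -0.00463 to 0.20 for MRPS30 and -0.20 to 0.19 for MRPS34. On day 5 DESeq2 gave -0.00868 for MRPL14. On day 5 no filter gave -0.0335 for MRPL14. On day 5 only the groups compared gave -0.0065 for MRPL14. On day 5 relative log expression gave -0.00921 for MRPL14. On day 5 limma at 0.1 gave 0.0528 for MRPS34. On day 5 limma at 1 gave 0.0521 for MRPS34. On day 5 limma unfiltered gave 0.0521 for MRPS34. On day 5 the replicate block gave 0.0111 for MRPS34. Between the days, leaving out a library gave -0.68 to 0.0368 for MRPL12, -0.18 to 0.16 for MRPL38, -0.22 to 0.0447 for MRPL41, -0.12 to 0.0986 for MRPL43, -1.16 to 1.01 for MRPL46, -0.00887 to 0.14 for MRPL58, -0.0923 to 0.0698 for MRPS10, -0.32 to 0.10 for MRPS18A, -0.24 to 0.0726 for MRPS18C, -0.000202 to 0.21 for MRPS31 and -0.13 to -0.0153 for MRPS33. Between the days no filter gave -0.0405 for MRPL38, -0.0441 for MRPL43 and -0.0476 for MRPS10. Between the days relative log expression gave -0.00294 for MRPL38, -0.00707 for MRPL43 and -0.0129 for MRPS10. Between the days upper-quartile factors gave -0.00938 for MRPL38, -0.0139 for MRPL43 and -0.0196 for MRPS10. Between the days limma at 0.1 gave 0.00259 for MRPL41, 0.0046 for MRPS18A, 0.0273 for MRPS18C and 0.0199 for MRPS33. Between the days limma at 1 gave 0.00252 for MRPL41, 0.00395 for MRPS18A, 0.0114 for MRPS18C and 0.0185 for MRPS33. Between the days limma unfiltered gave 0.00252 for MRPL41, 0.00395 for MRPS18A, 0.0114 for MRPS18C and 0.0185 for MRPS33. Between the days DESeq2 gave -0.00708 for MRPL43 and -0.0129 for MRPS10. Between the days the replicate block gave -0.000135 for MRPL43 and -0.00105 for MRPS10. Between the days only the groups compared gave -0.00187 for MRPS10.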
